A study of Mus musculus with 6 samples.

Results

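ADAM10 is a membrane-anchored metalloprotease that cuts the extracellular parts of Notch receptors, cadherins and many other surface proteins. The TspanC8 tetraspanins, named for the cysteines of their large extracellular loop, are multi-pass membrane proteins that bind ADAM10, help it to leave the endoplasmic reticulum and to mature, and steer it towards different substrates. In the fetal ovary, Notch signalling between germ cells and pregranulosa cells takes part in the breakdown of germ cell cysts and the formation of follicles. The genes described here are the 6 TspanC8 genes (Tspan14, Tspan5, Tspan10, Tspan15, Tspan17 and Tspan33) and Adam10, which is 7 genes of 35974 with a gene name. Their members were found as every transcript that the deposited annotation assigns to these gene names, which gave 26 of 114412 transcripts. Tspan14 was chosen because its summed counts were lower in PB than in control, so its change in that comparison, with any call or p that goes with it, is a description and not an independent test. The 5 other TspanC8 genes and Adam10 belong by family and not by their own change.

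PolyA RNA of E15.5 mouse ovaries (strain C57Bl6j) was sequenced in 3 control pools and 3 PB pools. PB is panobinostat, an inhibitor of histone deacetylases, given to the pregnant mice by oral gavage at 5 mg/kg between E6.5 and E15.5, and the controls received DMSO and water. The labels state this dose for each day and the methods for alternate days. For the ovaries in a pool, the extraction protocol states 4, the design text 6 to 8 and the RNA-seq methods at least 8. Each pool mixes all cell types of the ovary, so fewer cells of a type and less RNA per cell cannot be told apart.

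The total counts were 97165644 to 125985399 per control pool and 100650825 to 120143093 per PB pool. The markers of ovarian cells were present. Of the 10 germ cell, 9 pregranulosa cell, 5 interstitial cell and 6 endothelial cell markers none was at 0 in all pools. Summed over the markers, the germ cell level ranged from 800.5 to 1038 CPM (read counts per 1e6 counts) in control and from 672 to 1266 CPM in PB. For pregranulosa cells it ranged from 1444 to 1552 CPM in control and from 1401 to 1593 CPM in PB. The summed levels of the interstitial, endothelial, macrophage, red blood cell and mesonephros markers also overlapped between the groups. These sums follow the most abundant markers. All 6 red blood cell markers had a log2 fold change below 0, with a median of -0.29. An unadjusted edgeR p under 0.05 was found for Hba-a2 (-0.77), Pou5f1 (-0.58), Tie1 (-0.24) and Runx1 (0.15), beside 4.46% of all genes tested. Each had an edgeR FDR of 0.888.

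Tspan14 (chr14:40906427-40966940 in mm10, minus strand), a TspanC8 partner of ADAM10 that is known from endothelial cells, had 5862, 6526 and 5529 counts in control 1, 2 and 3. The PB pools held 2491, 2592 and 2662 counts. After scaling of the library sizes by TMM, these were 59.7, 56.0 and 58.7 CPM in control and 25.1, 25.4 and 22.9 CPM in PB. Every PB pool lay below every control pool, and the spread within each group was small beside the distance between the groups. The mean of the control pools was 58.1 ± 1.92 CPM and that of the PB pools 24.5 ± 1.36 CPM (SD, n = 3 pools each), a ratio of 0.421. The log2 fold change was -1.25 with an SE of 0.062. Of the 10643 genes with at least 10 CPM on average, 12 including Tspan14 had a log2 fold change this low, and of all 19435 genes tested 103 had. The 6 endothelial markers summed to 341, 341 and 374 CPM in control and to 323, 346 and 329 CPM in PB, and these groups overlapped. Of these 6 markers, 5 had a log2 fold change below 0, with a median of -0.15, and Tie1 had the lowest at -0.24, while Kdr was at 0.055. Tie1 had an unadjusted edgeR p of 0.0348 and an edgeR FDR of 0.888, the smallest of the 6. Their part in the Tspan14 level was not tested. Genes that differed at least 2-fold with an edgeR FDR no higher than 0.05 were called, and 1 of the 6 members that could be tested met this as lower in PB. Of all 19435 genes tested, 0.00515% were called lower, and since Tspan14 was chosen by this comparison nothing is read from that count.

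Adam10 (chr9:70678918-70780229, plus strand), the protease itself, had the highest level of the 7 genes. It held 353, 364 and 336 CPM in control and 349.9, 359 and 318 CPM in PB. PB 3 was the lowest pool and control 2 the highest, and the groups overlapped. The log2 fold change was -0.037 (95% interval -0.18 to 0.11, edgeR FDR 0.922). Without PB 3 the sign turned, with a log2 fold change of 0.013.

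Tspan5 (chr3:138742208-138904433, plus strand), a relative known to promote ADAM10 exit from the endoplasmic reticulum and Notch signalling, held 102, 104 and 90.8 CPM in control and 97.9, 97.4 and 94.3 CPM in PB. The PB pools lay within the range of the control pools. This gave a log2 fold change of -0.037 (95% interval -0.19 to 0.11, edgeR FDR 0.926).

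Tspan15 (chr10:62185396-62231277, minus strand), which is known to steer ADAM10 towards N-cadherin, held 23.9, 25.1 and 21.5 CPM in control and 23.5, 23.3 and 20.3 CPM in PB. The groups overlapped, with PB 3 and control 3 the lowest pools. Its log2 fold change was -0.069 (95% interval -0.28 to 0.14, edgeR FDR 0.905).

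Tspan17 (chr13:54789351-54796775, plus strand), the closest relative of Tspan5, was weak, with 236, 280 and 257 counts in control and 240, 272 and 392 counts in PB. In control this was 2.40, 2.40 and 2.73 CPM, and in PB 2.42, 2.66 and 3.37 CPM. PB 3 was the highest pool, and the other PB pools lay within the control range. Its log2 fold change was 0.17 (95% interval -0.23 to 0.56, edgeR FDR 0.890).

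Tspan33 (chr6:29694214-29718558, plus strand), a TspanC8 gene known from the red blood cell lineage, held 52.1, 82.8 and 47.4 CPM in control and 54.6, 60.8 and 40.6 CPM in PB. Control 2 stood above every other pool, and the groups overlapped. The log2 fold change was -0.23 (95% interval -0.81 to 0.35, edgeR FDR 0.894), and without control 2 it was 0.058. The 6 red blood cell markers summed to 23349.5, 31759 and 14795 CPM in control 1, 2 and 3, and in PB 1, 2 and 3 to 19969, 18138 and 18587 CPM. Control 2 was thus the highest pool for Tspan33 and for these markers, and their part in the Tspan33 level was not tested.

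Tspan10 (chr11:120442631-120447321, plus strand), known from pigmented cells of the eye, had 0, 3 and 3 counts in control and 7, 0 and 0 counts in PB. Its counts summed to 6 in control and 7 in PB, and it did not pass the filter on low counts. With 0 counts, a level as high as 3 counts remains possible, or 0.0257 to 0.0319 CPM by pool, and PB 1 was the only pool above 3 counts. This floor covers counting error only.

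Of the 5 relatives tested, Adam10 included, 0 were called by edgeR or by DESeq2, 0 had an unadjusted p under 0.05, and 0 had gene sums whose groups did not overlap, beside 10.7% of all genes tested. The intervals of Tspan5, Tspan15, Tspan17 and Adam10 hold changes of at most 0.56 in size on the log2 scale. That of Tspan33 is wider and reaches -0.81.

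**Figure D1:**
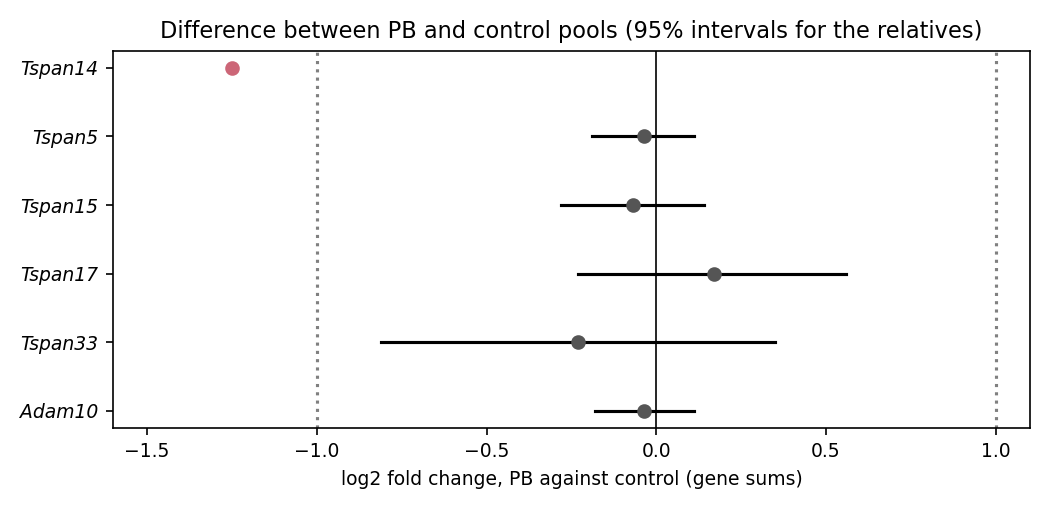
Log2 fold change of the gene sums in PB against control (x axis) for the 6 genes tested (y axis). Bars are 95% intervals of the 5 relatives from the edgeR fit on 3 pools per group, Tspan14 is drawn without one because it was chosen by this comparison, and dotted lines mark a 2-fold change. Tspan14 lies at -1.25, and every other interval includes 0.

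Levels of different genes were compared per length, in CPM per kb of exon length. In the control pools Adam10 was at 72.9 to 79.1 CPM per kb, Tspan5 at 28.7 to 32.8, Tspan33 at 23.1 to 40.3 and Tspan14 at 21.7 to 23.1. Tspan15 followed at 6.69 to 7.04 CPM per kb, Tspan17 at 1.59 to 1.96 and Tspan10 at 0 to 0.0154. The ranges of Tspan5 and Tspan33 overlapped, and those of Tspan33 and Tspan14 touched at 23.1, so the order of these neighbours is not set by the pools. In PB the order of the means was the same. Tspan14 was at 9.74, 9.84 and 8.88 CPM per kb there, between Tspan33 at 19.7 to 29.4 and Tspan15 at 5.72 to 6.58, and no neighbouring ranges overlapped. Tspan15 was the only relative whose level per length did not overlap between the groups, with 6.73, 7.04 and 6.69 CPM per kb in control and 6.57, 6.58 and 5.72 in PB. Its gene sum in CPM did overlap, and the measures differ because shorter Tspan15 transcripts held part of the counts of control 3. Of all genes tested, 10.7% had gene sums without overlap, and the share per length was not computed. Among 31 tetraspanin genes, ordered by their mean level per length, Tspan14 ranked 13 in control and 17 in PB, with Cd63, Cd81 and Tspan3 at the top in both.

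**Figure D2:**
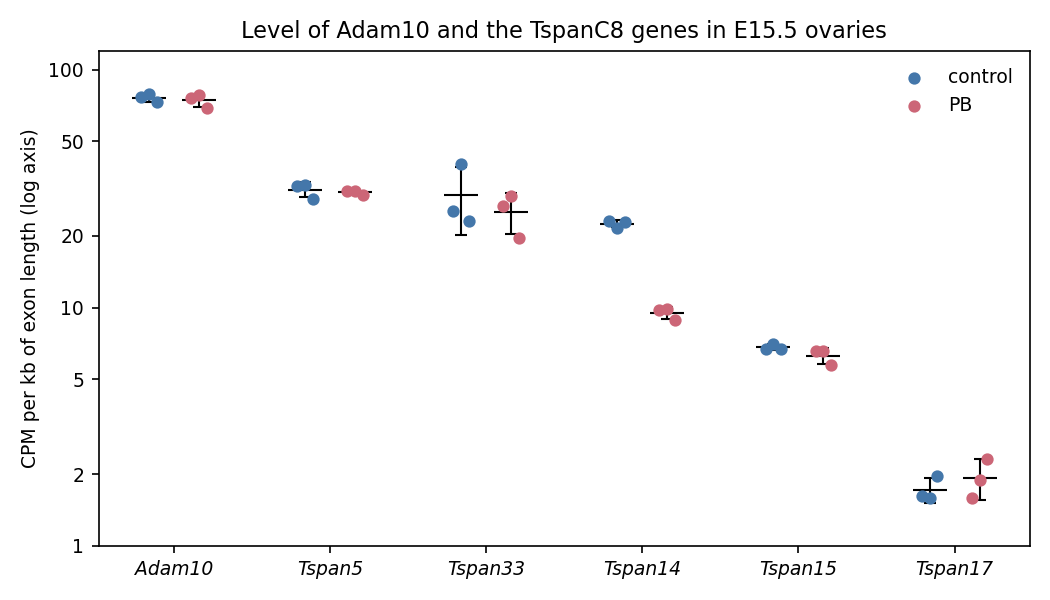
Level of each gene in CPM per kb of exon length (log y axis) in the 3 control pools and the 3 PB pools, 1 point per pool, with the mean and SD of each group. Tspan10 is left out because it had 0 to 7 counts per pool. Tspan14 lies at 21.7 to 23.1 in control and at 8.88 to 9.84 in PB, Tspan15 at 6.69 to 7.04 and 5.72 to 6.58, and the points of the other genes overlap between the groups.

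The makeup of the TspanC8 group was compared on the same scale. The summed level of the 6 TspanC8 genes was 89.2, 103 and 83.2 CPM per kb in control and 75.5, 78.5 and 66.4 in PB. Control 2 was highest, and every PB pool lay below every control pool. The sum includes Tspan14, which was chosen because it was lower in PB, so this separation is a description only. The means were 91.9 ± 10.4 and 73.5 ± 6.29 CPM per kb (SD, n = 3 each). Without Tspan14 the sum was 66.1, 81.7 and 60.4 in control and 65.8, 68.7 and 57.6 in PB, and the groups overlapped.

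Tspan14 supplied 25.9%, 21.0% and 27.4% of the summed TspanC8 level in control and 12.9%, 12.5% and 13.4% in PB. The share of Tspan5 was 36.3%, 31.7% and 34.5% in control and 41.0%, 39.2% and 44.9% in PB. The share of Tspan15 was 7.46% ± 0.623 in control and 8.56% ± 0.160 in PB (SD, n = 3 each). Both shares were higher in every PB pool, although the level of Tspan5 overlapped between the groups. The level of Tspan15 was lower in every PB pool per length, while its gene sum in CPM overlapped. A smaller Tspan14 raises the shares of the rest by construction. The shares of Tspan33 (31.7% ± 6.28 and 34.1% ± 4.04) and Tspan17 (1.90% ± 0.413 and 2.66% ± 0.741) overlapped.

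Set against the level of Adam10, Tspan14 stood at 0.301, 0.274 and 0.312 in control and at 0.128, 0.126 and 0.129 in PB. The ratio of the other TspanC8 genes together to Adam10 was 0.861, 1.03 and 0.829 in control and 0.866, 0.881 and 0.835 in PB. The groups were separated for Tspan14, as its choice and the level of Adam10 set, and overlapped for the rest. These ratios compare RNA levels and not protein.

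**Figure D3:**
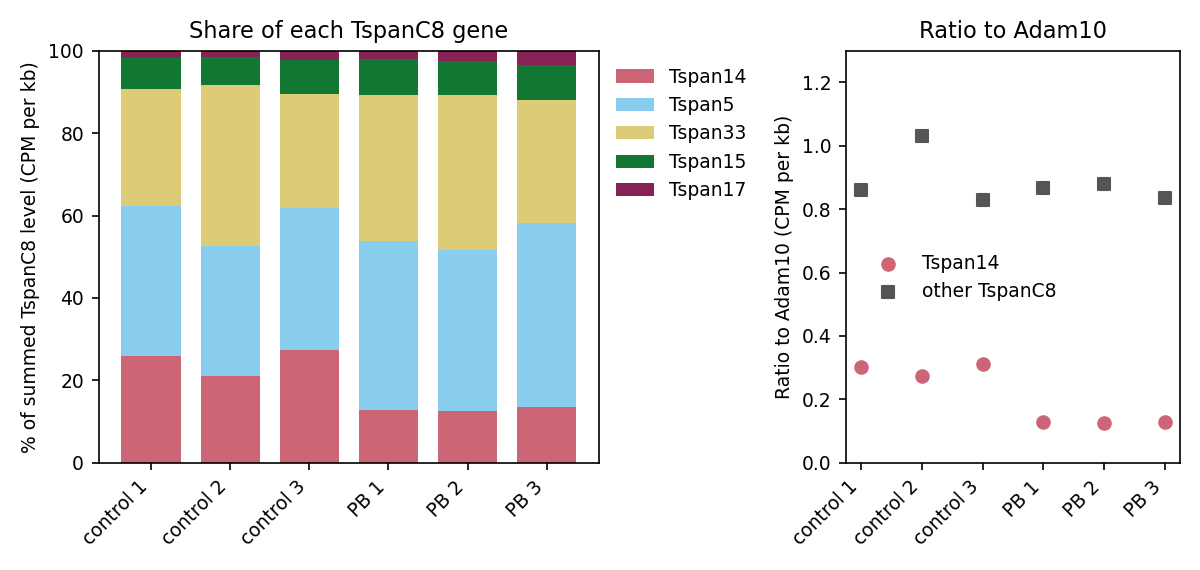
Left, share of each TspanC8 gene in the summed TspanC8 level of each pool, from CPM per kb; Tspan10 was at most 0.0453% and is left out. Right, level of Tspan14 and of the other TspanC8 genes together, divided by that of Adam10 in the same pool. Tspan14 takes 21.0% to 27.4% in control and 12.5% to 13.4% in PB.

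Transcript counts rest on how StringTie shared out the reads of each locus. Of the 26 transcripts of the 7 genes, 13 were at 0 in at least 1 pool and 15 passed the filter on low counts. By edgeR 0 of these 15 were called, beside 0.0332% of the 51227 transcripts tested in either direction and 0.0195% lower in PB. The biological coefficient of variation estimated by edgeR was 98.41% for transcripts and 20.94% for gene sums. The lack of calls thus does not show that these transcripts were unchanged. An unadjusted p under 0.05 was found for 1, beside 3.56% of all transcripts tested. DESeq2 called 1. In both cases this was NM_145928.2 of Tspan14 (edgeR FDR 0.0544), which restates the choice of that gene and supports nothing.

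NM_145928.2, the Tspan14 transcript with 9 exons, held 95.4% of the gene's counts. It had 5802, 6232 and 5175 counts in control and 2360, 2424 and 2492 in PB, or 54.6 ± 2.76 and 22.5 ± 1.22 CPM (SD, n = 3 each). Its log2 fold change of -1.28 (SE 0.085) was close to that of the gene sum. The groups did not overlap.

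XM_017316081.1, a predicted transcript with 8 exons, held 57, 293 and 351 counts in control and 126, 166 and 159 in PB. Its share of the Tspan14 counts was 0.972%, 4.49% and 6.35% in control and 5.06%, 6.40% and 5.97% in PB. Control 1 had the lowest count of all pools and control 3 the highest, so the groups overlapped. Its log2 fold change was -0.67 (SE 0.69), -1.13 without control 1 and -0.13 without control 3.

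XM_017316081.1 lacks exon 2 of NM_145928.2 (chr14:40934188-40934285, 98 bases), which in the GENCODE M21 annotation holds the start codon of Tspan14. These 2 transcripts, with nearly all counts of the gene, also differ in their first exon, which starts at 40966940 in XM_017316081.1 and at 40966896 in NM_145928.2. The coding part of exon 2, chr14:40934188-40934268 on the minus strand of GRCm38, is shown with the start codon in capitals because XM_017316081.1 lacks it.
Tspan14 exon 2, coding part: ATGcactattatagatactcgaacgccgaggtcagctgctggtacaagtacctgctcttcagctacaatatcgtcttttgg

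The other 2 Tspan14 transcripts start inside the gene. NM_001316748.1 had 1, 1 and 3 counts in control and 0, 0 and 1 in PB, and XM_006519261.1 had 2, 0 and 0 counts in control and 5, 2 and 10 in PB. Transcripts from the distal start thus held 25637 of the 25662 Tspan14 counts (99.9%), and at least 99.6% in every pool. The sequence before the distal start, from 250 bases before NM_145928.2 to the first base of XM_017316081.1 (chr14:40966941-40967146, minus strand, 206 bases), is shown beside that before the internal start of NM_001316748.1 (chr14:40948210-40948459, minus strand, 250 bases). Both come from RefSeq (GRCm38.p6). Capitals mark the GC box, GGGCGG or its reverse CCGCCC.
Tspan14 distal start: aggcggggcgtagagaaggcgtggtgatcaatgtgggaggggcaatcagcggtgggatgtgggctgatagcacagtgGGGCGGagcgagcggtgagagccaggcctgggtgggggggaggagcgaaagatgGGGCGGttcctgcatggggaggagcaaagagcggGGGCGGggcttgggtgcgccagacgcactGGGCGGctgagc
Tspan14 internal start: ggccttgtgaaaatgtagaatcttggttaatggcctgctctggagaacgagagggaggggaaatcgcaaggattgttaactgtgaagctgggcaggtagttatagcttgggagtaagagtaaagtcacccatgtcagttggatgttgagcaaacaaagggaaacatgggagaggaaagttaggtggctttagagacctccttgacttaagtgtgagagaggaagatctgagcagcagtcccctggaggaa

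The distal window held 4 GC boxes, and 25.8% of 32851 mouse promoters held at least 1 in the same window. The share of promoters with 4 or more was not counted. It also held 14 CpG dinucleotides, a number that 21.1% of promoters reached. The internal window held 0 GC boxes, against 32.7% of promoters with at least 1, and 2 CpG dinucleotides, which 81.2% of promoters reached. Neither window held a CCAAT box (CCAAT or ATTGG, in 29.3% of promoters for the distal and 33.8% for the internal window) or a TATA box (TATAAA or TTTATA, 9.38% and 12.4%). In the full 250 bases before NM_145928.2, Tspan14 had 5 GC boxes. In the 250 bases before the start of the relatives, Tspan17 had 8 GC boxes, Adam10 3, Tspan33 2 and Tspan5 1, and Tspan15 and Tspan10 had 0. A match of letters is a description of the window only.

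Each relative tested also drew most of its counts over the 6 pools from 1 transcript, with 58.3% for Tspan33 and 72.2% for Tspan17 as the lowest shares. Adam10 was almost wholly NM_007399.4, with 34706, 42462 and 31606 counts in control and 34686, 36716 and 36893 in PB. The longer XM_011242657.2 held 12 to 25 counts per pool. Tspan15 came to 98.2% from NM_197996.2. In control 3 that share was 91.4%, since XM_006514080.1 held 100 counts and XM_011243560.2 held 67 there, against at most 6 and 20 in the other pools. XM_011243561.1 had 6 counts in control 3 and 0 in the others.

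Tspan5 came to 90.5% from NM_019571.5, which had 9238, 11062 and 7560 counts in control and 8472, 9352 and 9868 in PB. NR_121195.1, a transcript that RefSeq lists as non-coding, held 804, 1019 and 970 counts in control and 1221, 577 and 1070 in PB. Its share of the Tspan5 counts was 9.25% ± 1.83 in control and 9.37% ± 3.41 in PB (SD, n = 3 each). PB 1 and PB 2 were the highest and the lowest pool, so the groups overlapped. NR_121195.1 lacks the first 64 of the 126 bases of a coding exon (chr3:138896789-138896852, plus strand, GRCm38, GENCODE M21), shown here because it is the only difference between these transcripts.
Tspan5 bases absent from NR_121195.1: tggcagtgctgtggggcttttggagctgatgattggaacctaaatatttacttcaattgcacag

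The 3 remaining Tspan5 transcripts, XM_006501737.3, XR_375551.3 and XM_006501736.3, held 0 to 31 counts per pool. XR_375551.3 and XM_006501736.3, whose starts lie 63 bases apart, were never both above 0 in the same pool.

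Tspan33 was divided between 3 transcripts in every pool. NM_146173.3 held 54.3%, 58.1% and 54.5% of its counts in control and 59.0%, 59.3% and 64.4% in PB. NM_001301407.1 held 33.7%, 29.9% and 33.4% in control and 30.6%, 26.9% and 23.3% in PB. The share of NM_146173.3 was higher in every PB pool and that of NM_001301407.1 overlapped between the groups. The shares were not tested, and 9.95% of all transcripts tested had groups without overlap in their own levels. In level, NM_146173.3 had a log2 fold change of -0.11 (95% interval -0.85 to 0.62) and NM_001301407.1 of -0.45 (95% interval -1.23 to 0.32). Without control 2 these were 0.22 and -0.23.

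These transcripts differ by 3 coding bases at the start of exon 3 (chr6:29710587-29710589, plus strand, GRCm38), in capitals below between 15 bases of exon 2 and 15 bases of exon 3 from GENCODE M21.
Tspan33 NM_146173.3: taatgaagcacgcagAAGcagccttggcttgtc
Tspan33 NM_001301407.1: taatgaagcacgcagcagccttggcttgtc

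The third Tspan33 transcript, MSTRG.14867.1, was assembled by StringTie and keeps the 588-base intron between these exons (chr6:29709999-29710586). Its share of the Tspan33 counts was 12.0%, 12.0% and 12.1% in control, and 10.4%, 13.8% and 12.2% in PB. Its level had a log2 fold change of -0.20 (95% interval -1.06 to 0.65), and 0.088 without control 2.

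Tspan17 varied most between pools in its makeup. NM_028841.3 held 191, 260 and 101 counts in control and 228, 144 and 287 in PB, and its share of the gene's counts was 39.3% in control 3, the lowest, and 228 of 240 counts in PB 1, the highest. XM_006517414.2 held 43, 1 and 57 counts in control and 12, 59 and 105 in PB. The other 5 transcripts, XM_006517417.3, XM_006517415.2, XR_382461.1, XM_017315617.1 and XM_017315618.1, held 0 to 35 counts per pool and were at 0 in PB 1 and PB 3. The coefficient of variation was 34.7% in control and 27.9% in PB for NM_028841.3, against 7.52% and 17.6% for the gene sum. The gene sum was thus the steadier measure of Tspan17.

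**Figure D4:**
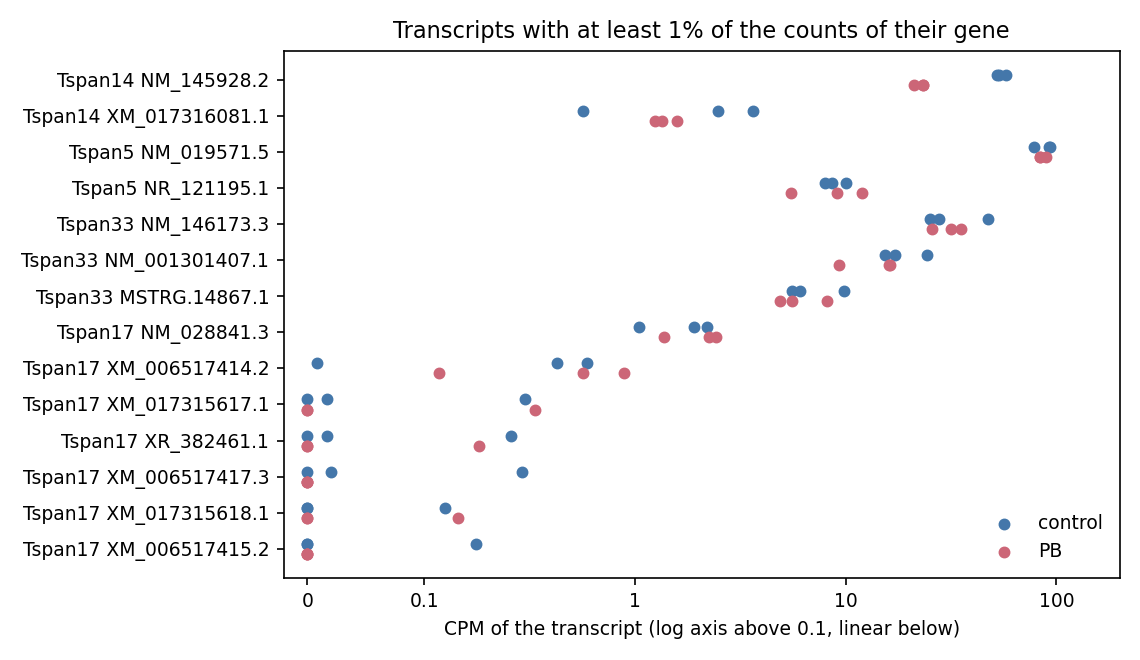
CPM per pool (x axis, logarithmic above 0.1) of the transcripts of Tspan14, Tspan5, Tspan33 and Tspan17 that hold at least 1% of the counts of their gene, 1 point per pool. NM_145928.2 of Tspan14 is the only one whose control and PB points stand apart, and most Tspan17 transcripts are at 0 in some pools.

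The genes within 250 kb of Tspan14 were compared in the same way. Sh2d4b, the next gene towards its 3 prime end, was at 2.06 ± 0.142 CPM in control and 2.15 ± 0.434 in PB, with a log2 fold change of 0.064 (95% interval -0.37 to 0.50). Fam213a, the next expressed gene on the upstream side, was at 31.9 ± 2.24 and 30.6 ± 2.42 CPM, with a log2 fold change of -0.061 (95% interval -0.26 to 0.14). Dydc2, further upstream, was at 61.0 ± 5.24 and 61.2 ± 7.61 CPM, with a log2 fold change of 0.0037 (95% interval -0.25 to 0.26). Each mean is over n = 3 pools, and for each of these neighbours the groups overlapped. The log2 fold change was -0.10 (95% interval -1.32 to 1.12) for Mat1a and -0.66 (95% interval -2.37 to 1.05) for Mbl1, which were near or below 1 CPM. Gm31839 was at 0 in all pools, and Dydc1, Sftpa1 and Sftpd had at most 5 counts in a pool and were not tested.

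The genes whose log2 CPM over the 6 pools was most like that of Tspan14 were Hmgcs1 (Pearson r 0.9969), which encodes an enzyme of cholesterol synthesis, Slc16a13 (0.9928), Fuca1 (0.9923), Taf4 (0.9877) and Fam129a (0.9831). The most opposite were Plekho1 (-0.9979), Sparc (-0.9969), Gm34752 (-0.9967), Npc2 (-0.9928) and 9330198I05Rik (-0.9923). Before the logarithm 0.5 CPM was added to each level. Gm34752, with 0 counts in every control pool and 10, 11 and 15 in PB, and 9330198I05Rik, with 15 to 30 counts per pool, were weak. Their r depends on this offset. All 10 are genes whose groups did not overlap, and with 3 pools per group these values reflect the step between control and PB. They differed in the size of that step. Hmgcs1 was at 216 ± 2.88 CPM in control and 159 ± 2.24 in PB, while Fuca1 was at 41.8 ± 0.260 and 39.6 ± 0.0634 CPM (SD, n = 3 each). The same measure for the members was 0.26 for Tspan5, 0.37 for Tspan15, 0.32 for Tspan33, 0.33 for Adam10 and -0.50 for Tspan17. These values describe the same 6 libraries, and no p-value is attached to them.

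The other genes around ADAM10 were described by lists. In each of the 6 lists edgeR and DESeq2 called 0 genes, and the smallest edgeR FDR was 0.888. Of all genes tested, 0.0154% were called in either direction and 4.46% had an unadjusted p under 0.05. The median log2 fold change of all genes was 0.0020, with 9849 above 0 and 9586 below. All lists rest on the same 6 libraries and the same scaling, so the signs of their genes are not independent.

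Of 25 other tetraspanins, 24 were tested, and 4 had a log2 fold change above 0 and 20 below, with a median of -0.045. None had an unadjusted p under 0.05. The 2 with the largest change at 1 CPM or more were Cd37, a tetraspanin of leukocytes, at -0.35 (95% interval -1.05 to 0.34), and Tspan32, a tetraspanin of blood cells, at -0.31 (95% interval -0.89 to 0.28). Tspan32 was at 9.97, 16.7 and 11.0 CPM in control and 11.5, 11.4 and 7.55 in PB, with control 2 highest as for Tspan33.

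Of 13 other ADAM proteases and BACE sheddases, 12 were tested, 2 with a log2 fold change above 0 and 10 below, and a median of -0.079. Adam12, a secreted or membrane-bound metalloprotease, had an unadjusted edgeR p of 0.0268 and a log2 fold change of 0.21 (SE 0.073, edgeR FDR 0.888). It was at 17.2, 20.0 and 18.3 CPM in control and 20.7, 21.5 and 21.9 in PB. The 3 partners of Adam17, the other main sheddase, had a median of -0.12. Frmd8 was at 42.2, 42.4 and 42.1 CPM in control and 22.1, 40.3 and 38.9 in PB, so that PB 1 carried most of its log2 fold change of -0.32 (95% interval -0.84 to 0.19). Rhbdf2 had a log2 fold change of -0.12 (95% interval -0.30 to 0.062).

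The 9 genes for ADAM10 maturation, inhibition and trafficking, among them the proprotein convertases that remove its prodomain and the TIMP inhibitors, had a median log2 fold change of -0.035, with 1 above 0 and 8 below. Timp4 had an unadjusted edgeR p of 0.0469 and a log2 fold change of -0.59 (SE 0.24, edgeR FDR 0.888). It was weak, with 0.792 ± 0.156 CPM in control and 0.526 ± 0.0631 in PB (SD, n = 3 each).

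Of 28 genes for ADAM10 substrates, among them the Notch receptors, cadherins and App, 9 had a log2 fold change above 0 and 19 below, with a median of -0.039. None had an unadjusted p under 0.05. The 2 with the largest change at 1 CPM or more were Cdh1 (E-cadherin) and Alcam. Cdh1 was at 7.32, 4.91 and 13.5 CPM in control and 5.34, 5.71 and 4.87 in PB, with control 3 far above the rest and a log2 fold change of -0.69 (95% interval -1.52 to 0.14). Alcam was at 90.0, 144 and 79.1 CPM in control and 146, 138 and 93.1 in PB, with a log2 fold change of 0.27 (95% interval -0.36 to 0.90).

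Of the 7 genes of gamma-secretase, which cuts Notch after ADAM10, 2 had a log2 fold change above 0 and 5 below, with a median of -0.055. Aph1a was at 78.0, 80.1 and 74.9 CPM in control and 71.4, 72.1 and 72.2 in PB, with an unadjusted edgeR p of 0.0473. Aph1b, its paralogue, which can share reads with its close copy Aph1c, was at 23.2, 22.8 and 19.8 CPM in control and 26.2, 23.9 and 25.5 in PB, with an unadjusted edgeR p of 0.0422. Both had groups without overlap, in opposite directions, and an edgeR FDR of 0.888. Their log2 fold changes were -0.11 (SE 0.046) and 0.20 (SE 0.080).

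**Figure D5:**
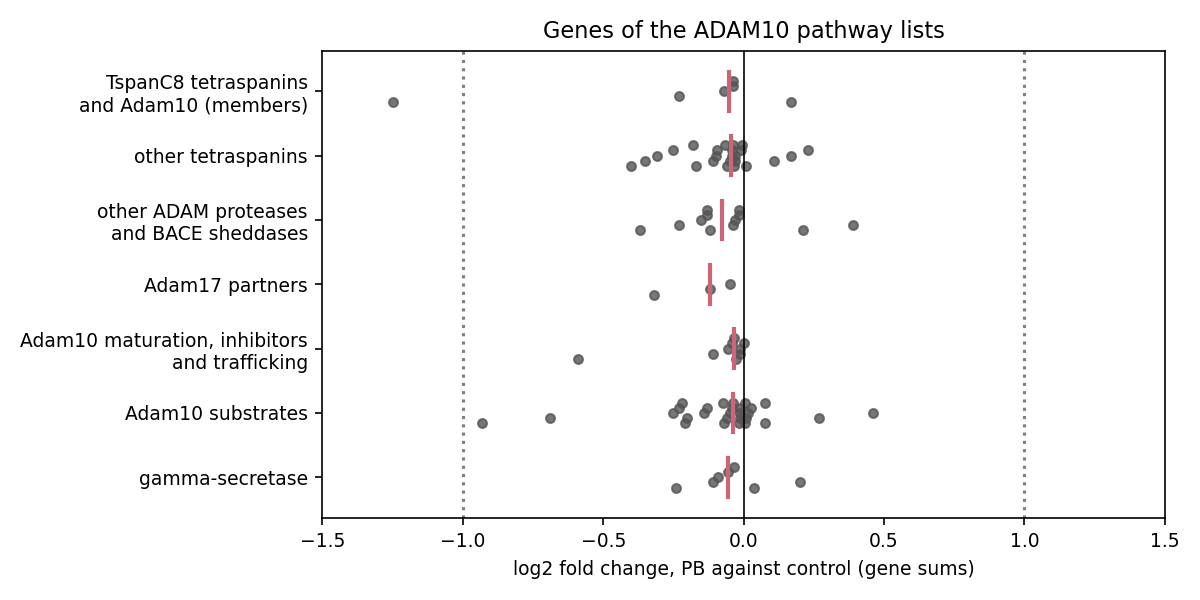
Log2 fold change of the gene sums in PB against control (x axis) for the tested genes of each list (y axis), 1 grey point per gene, with the median of the list as a red line and a 2-fold change as dotted lines. Tspan14 is the only point beyond the dotted lines, and the medians of the 6 other lists lie between -0.12 and -0.035.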

How the data were processed

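RNA-seq libraries of 3 control and 3 PB pools were assigned to groups by their labels. The authors aligned the stranded reads to mm10 with HISAT2 2.1.0, used StringTie 1.3.5 with RefSeq to assemble and merge the transcripts, and deposited raw counts per transcript without normalization. The columns of the authors' DESeq2 1.30.0 comparison (fold changes, p-values) and 6 columns of normalized values beside them were not used.

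Counts were summed by gene name. The 1493 transcripts without a gene name, with 3.05% to 4.49% of the counts of a pool, entered no gene sum. Of 35974 named genes, 19435 passed filterByExpr (minimum count 10, minimum total 15) and were tested with the edgeR 4.0.16 quasi-likelihood F-test after TMM in R 4.3.3. Features were called at 2-fold or more with an FDR (Benjamini-Hochberg) of 0.05 or less. The SE is the size of the log2 fold change over the square root of F. CPM per kb divides the TMM-scaled CPM of each transcript by its exon length, summed over the gene. The test was tested on simulated data. The members and lists were chosen with earlier results of these data known. Named genes are the members, genes of each list with an unadjusted p under 0.05 (or else the 2 with the largest change at 1 CPM or more), genes within 250 kb of Tspan14, and the 5 with the highest and the 5 with the lowest correlation with it. Other names, such as Cd63 and App, were chosen after their values were seen. All 7 members matched the RefSeq promoter table. Alternatives were DESeq2 1.42.0 (size factors, Wald test), other filters, a replicate block, only transcripts that match RefSeq, StringTie loci and leaving out each pool. P-values set the group difference against the estimated variation between these pools. The RNA-seq methods do not state which litters made up a pool.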

Additional observations from a re-analysis of the deposited data

How the results depend on the processing

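Of 235 recomputed values, 221 kept their direction and their side of the threshold or stayed within the spread. The DESeq2 Wald test called 11 genes in place of 3 and 1 member transcript in place of 0, and the stricter filter also called 1 member transcript. With known transcripts only, 8 genes were called. The replicate numbers gave no clear pairing of the pools. Correlations of same-numbered pools were 0.0934, 0.147 and -0.0177, and those of pools with different numbers ranged from -0.167 to 0.0963. These few small values cannot settle whether the pools were paired. With the replicate number as a block, 0 genes and 0 members were called, and the log2 fold change of Tspan14 was -1.25, past the FDR threshold no longer. The cause of these changes was not tested. Leaving out 1 pool at a time gave 3 to 9 called genes (5 without control 1, control 2 or PB 3, and 9 without PB 2). The log2 fold changes then ranged from -1.28 to -1.20 for Tspan14, -0.10 to -0.0039 for Tspan5, -0.13 to -0.0035 for Tspan15 and 0.017 to 0.26 for Tspan17. They ranged from -0.38 to 0.058 for Tspan33, with 0.058 without control 2, and from -0.074 to 0.013 for Adam10, with 0.013 without PB 3. The median of the Adam17 partners ranged from -0.16 to -0.050, with -0.050 without PB 3. Depth limited Tspan10, and transcripts at 0 in some pools.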
